A study of Mus musculus with 8 samples.

Results

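The 8 chemokine ligand genes *Ccl3*, *Ccl4*, *Ccl5*, *Xcl1*, *Ccl1*, *Cxcl9*, *Cxcl10* and *Cxcl16* were followed by their symbols in RNA-seq counts of 55335 mouse genes, and all 8 were among the 15378 genes that had enough reads to test. The RNA came from live CD45.2+ TCRβ+ T cells positive for CD8, CD44 and PD-1 (below, TILs, for lymphocytes that infiltrate tumors), sorted from MC38 tumors, a mouse colon carcinoma line implanted into C57BL/6 mice. The 4 wildtype (WT) samples carried floxed *Lsd1* alleles without Cre (Lsd1f/f), and the 4 LSD1-deficient (KO) samples carried the same alleles with a Cre transgene (Cd4-Cre+Lsd1f/f). Cd4-Cre acts in developing T cells, so CD4+ and CD8+ T cells of the KO mice both lose LSD1, the histone demethylase encoded by *Kdm1a*. Cells of 2 mice were pooled for every WT sample, but each KO sample is 1 mouse, and 10000 to 20000 cells were sorted for each. The protocol places the harvest on day 18 after implantation, whereas the design text of the series gives day 14, and the labels give no age of the mice. The question was what LSD1 loss changes in the transcriptome of these cells, and here in their chemokine genes.

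Chemokines are small secreted proteins that guide leukocytes along gradients through G protein-coupled receptors. CCL3, CCL4 and CCL5 are inflammatory CC chemokines released by activated CD8+ T cells, and CCL3 and CCL5 bind CCR1. XCL1 is secreted by activated CD8+ T cells and NK cells and attracts dendritic cells that bear XCR1. CCL1 is the ligand of CCR8. CXCL9 and CXCL10 are induced by IFN-γ, mostly in myeloid and stromal cells, and attract T cells through CXCR3. CXCL16 is made by macrophages and dendritic cells as a membrane-bound or shed ligand of CXCR6.

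Several of these genes lie next to each other in GRCm38. *Ccl3* (chr11:83647844-83649355, minus strand) and *Ccl4* (chr11:83662584-83664683, plus strand) start 14.7 kb apart, and *Ccl5* (chr11:83525778-83530518, minus strand) starts 122 kb from *Ccl3*. *Cxcl9* (chr5:92321347-92328079, minus strand) and *Cxcl10* (chr5:92346638-92348889, minus strand) start 25.3 kb apart. *Ccl1* (chr11:82176657-82305690) and *Cxcl16* (chr11:70453983-70459984) lie elsewhere on chromosome 11, and *Xcl1* (chr1:164931644-164935527) lies on chromosome 1, all on the minus strand. All 8 are protein-coding genes.

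The promoter windows of 2 ligands that were higher and 2 that were lower in KO are shown with motifs of interferon and NF-κB responses. Among these, NF-κB motifs matched in *Cxcl9* and *Cxcl10*, and the interferon motif matched in those 2 and in *Ccl3*. The window of *Ccl1*, which was not called, held both motifs. Whether motifs go with the direction of change was not tested. Each window is the 250 bases before the start of the gene in RefSeq on GRCm38.p6, read 5′ to 3′ on the minus strand, from chr5:92328080-92328329 for *Cxcl9*, chr5:92348890-92349139 for *Cxcl10*, chr11:83649379-83649628 for *Ccl3* and chr1:164935523-164935772 for *Xcl1*. Capitals mark matches, on either strand, to the core of the interferon-stimulated response element (ISRE, GAAANNGAA), a κB motif (GGNNNTTCC), an NFAT motif (GGAAAA), an AP-1 motif (TGANTCA) or TATAAA.
Cxcl9: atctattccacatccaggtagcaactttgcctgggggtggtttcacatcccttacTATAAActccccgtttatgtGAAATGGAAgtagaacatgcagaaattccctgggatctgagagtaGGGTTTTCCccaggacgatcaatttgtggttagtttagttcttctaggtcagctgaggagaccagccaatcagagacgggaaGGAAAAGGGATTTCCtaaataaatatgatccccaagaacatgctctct
Cxcl10: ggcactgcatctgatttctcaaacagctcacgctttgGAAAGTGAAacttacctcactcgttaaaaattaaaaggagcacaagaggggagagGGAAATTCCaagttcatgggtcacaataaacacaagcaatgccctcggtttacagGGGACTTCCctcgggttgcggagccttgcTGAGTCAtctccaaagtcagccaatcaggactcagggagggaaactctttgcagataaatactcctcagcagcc
Ccl3: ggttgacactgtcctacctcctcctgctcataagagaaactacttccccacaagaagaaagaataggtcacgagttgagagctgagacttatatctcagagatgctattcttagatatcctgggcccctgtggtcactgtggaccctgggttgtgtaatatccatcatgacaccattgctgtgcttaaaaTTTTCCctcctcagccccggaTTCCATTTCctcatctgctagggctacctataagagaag
Xcl1: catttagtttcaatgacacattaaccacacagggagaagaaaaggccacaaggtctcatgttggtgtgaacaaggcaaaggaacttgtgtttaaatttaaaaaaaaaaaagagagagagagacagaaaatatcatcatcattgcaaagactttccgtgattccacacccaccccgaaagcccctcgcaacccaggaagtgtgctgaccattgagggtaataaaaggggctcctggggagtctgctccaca

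RefSeq windows were matched for 5 of the 8 ligands, those shown and *Ccl1*, and not for *Ccl4*, *Ccl5* and *Cxcl16*. The *Cxcl9* window held an ISRE core whose first base was 175 bases upstream of the start and κB matches at 130 and 42 bases, each overlapping or touching an NFAT match, and the *Cxcl10* window held an ISRE core at 213 bases, κB matches at 158 and 103 bases and an AP-1 match at 74 bases. In the *Ccl3* window, an NFAT match at 60 bases and an ISRE core at 39 bases both lay on the other strand. The *Xcl1* window held no match to any motif searched, which besides those named were the STAT motif GAS (TTCNNNGAA) and the TCF/LEF motif (CTTTGA). The *Ccl1* window, not shown, held an ISRE core, a κB and an NFAT match. Of 32851 promoter windows of this length, 7.13% held an ISRE core, 15.7% a κB match, 20.4% an NFAT match, 6.75% an AP-1 match, 12.4% TATAAA, 7.02% GAS and 13.8% the TCF/LEF letters. A match describes letters only, and no binding was measured here.

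Libraries held 11657807 to 30295406 counts on genes, and the 8 ligands together took 0.0484% to 0.0748% of them in WT and 0.0652% to 0.106% in KO. Levels are given as CPM, which are counts relative to the size of the library after TMM scaling, and 3 counts amounted to 0.106 to 0.25 CPM. *Kdm1a*, the targeted gene, averaged 44.9 ± 1.87 CPM in WT against 30.7 ± 4.03 in KO (SD, n = 4), without overlap of the groups and without being called (edgeR adjusted p = 0.0163). Its counts cover the whole gene, so they do not single out the floxed exons. The 11 CD8 T cell markers summed to 5826 to 6333 CPM in WT and 5566 to 6138 in KO, with 9 below and 2 above 0 in log2 fold change. Of these, *Cd44* alone was called, higher in KO (433 and 785 CPM), whereas *Cd8b1* (346 and 264 CPM) and *Cd3g* (185 and 144 CPM) did not overlap between the groups but were not called (edgeR adjusted p = 0.0158 and 0.0505). Markers of another cell type moved with genotype: 17 macrophage markers, which the gate should leave out, summed to 313, 362, 867 and 404 CPM in the WT samples (named S1 to S4) and to 92.2, 110, 67.3 and 63.1 CPM in the KO samples (S5 to S8). Their 15 tested members were all below 0 in log2 fold change, 11 were called lower in KO, and *Cd163* had no count in any WT sample. The summed level of 4 CD4 T cell markers was 40.1 to 57 CPM in WT and 121 to 155 in KO. Most of it was *Zbtb7b* (mean 44.6 and 102 CPM), which was called higher, as was *Cd40lg* (2.29 and 12.3 CPM). *Cd4* itself (4.54 and 14.3 CPM) and *Foxp3* (1.1 and 2.42 CPM) were not called (edgeR adjusted p = 0.0161 and 0.37). The part of these CD4 markers in the results was not tested. Of the NK cell, neutrophil, B cell, and stromal and tumor cell markers, 1 was called (*Pecam1*, higher), and the summed levels were at most 53.9, 6.12, 5.71 and 79.5 CPM in any sample. The stromal and tumor cell sum was 21.45 to 32.56 CPM in WT and 59.24 to 79.5 in KO. Most of that sum was *Pecam1* (mean 22.92 and 63.65 CPM).

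In the RNA of the sorted samples, chemokine ligands differed between KO and WT in both directions, and the cells they came from were not resolved. *Ccl3* and *Xcl1* rose, *Cxcl9*, *Cxcl10* and *Cxcl16* fell, and *Ccl4*, *Ccl5* and *Ccl1* did not pass the test. A gene was called when its fold change was above 1.5 and its p in the quasi-likelihood test of edgeR, adjusted by Benjamini-Hochberg over all genes tested, was below 0.01. So 2 of 8 ligands were called higher, against 2.91% of all genes tested, and 3 of 8 were called lower, against 1.99%. WT and KO values did not overlap for 4 ligands (*Ccl3*, *Cxcl9*, *Cxcl10* and *Cxcl16*), against 17.3% of all genes. The median log2 fold change was -0.40 over the 8 ligands, with 3 above and 5 below 0, and -0.01 over all genes.

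**Figure D1:**
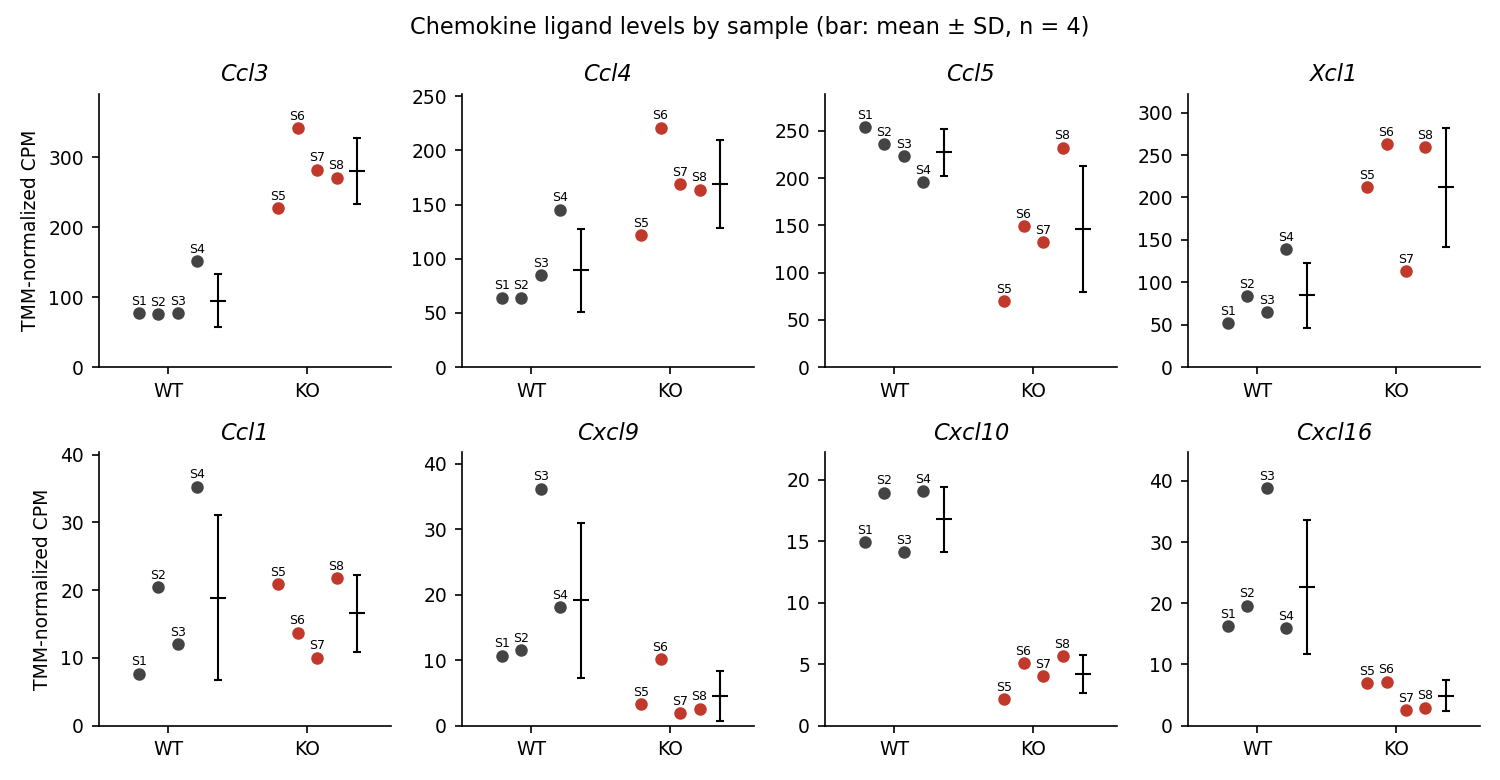
Level of each chemokine ligand in TMM-normalized CPM (linear axes from 0) in WT samples S1 to S4 and KO samples S5 to S8. Points are samples and bars show the mean ± SD (n = 4). *Ccl3*, *Cxcl9*, *Cxcl10* and *Cxcl16* do not overlap between the groups.

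Of the inflammatory CC ligands *Ccl3*, *Ccl4* and *Ccl5*, *Ccl3*, which encodes MIP-1α, was the 1 called higher. WT samples had 77, 75.6, 77.1 and 151 CPM, and KO samples had 227, 341, 282 and 271 CPM. All KO samples lay above all WT samples, and S4 was nearer to the KO samples than the other WT samples were. The means were 95.2 ± 37.4 CPM in WT and 280 ± 47.1 in KO (SD, n = 4), a 2.95-fold rise with a log2 fold change of 1.56 (SE 0.20, edgeR adjusted p = 4.97e-05). An exact two-sided permutation test of the 4 against 4 samples gave p = 0.0286, the smallest that 70 arrangements can give.

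*Ccl4*, which encodes MIP-1β and lies beside *Ccl3*, was 64, 64.2, 84.8 and 145 CPM in WT and 122, 221, 169 and 164 CPM in KO. Only S4 of the WT samples reached the range of KO, above S5. Its log2 fold change of 0.92 (SE 0.22) had an adjusted p of 0.0125 in edgeR and was not called, and the exact permutation p was 0.0571. Leaving out S4 gave 1.25 with an adjusted p of 0.000284 in edgeR, and leaving out S5 gave 1.05 with 0.00571, so both lie on the other side of the threshold.

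The balance of these neighbors shifted, in a comparison chosen after their values were seen. The ratio of *Ccl3* to *Ccl4* counts, which needs no scaling between libraries, was 1.2, 1.18, 0.91 and 1.04 in the WT samples but 1.87, 1.54, 1.67 and 1.65 in the KO samples. The WT samples stood near equal counts and every KO sample held more *Ccl3* than *Ccl4*. The mean ratio was 1.08 ± 0.135 in WT and 1.68 ± 0.135 in KO (SD, n = 4, exact permutation p = 0.0286). Without any 1 of the 8 samples, the difference of the log2 ratio stayed between 0.56 and 0.70, against 0.64 with all. S4, the WT sample with the highest levels of both genes, had a ratio of 1.04, which is within the other WT values.

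*Ccl5*, which encodes RANTES, was lower in most KO samples but did not pass the test. It was 254, 236, 223 and 196 CPM in WT and 69.8, 149, 133 and 232 CPM in KO. The WT samples were close together, whereas S8, the deepest library, lay in the WT range and S5 was lowest. The means were 227 ± 24.5 and 146 ± 66.9 CPM (SD, n = 4), with a log2 fold change of -0.64 (SE 0.23, edgeR adjusted p = 0.0899) and an exact permutation p of 0.0857. Without S8 the log2 fold change was -0.96 with an edgeR adjusted p of 0.00362, which would be called. Without S5 it was -0.40 with an edgeR adjusted p of 0.135. S8 was the only sample whose omission led to a call.

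*Xcl1*, the lymphotactin gene, rose in the quasi-likelihood test, but not in every test run. Its level was 51.6, 83.5, 65 and 139 CPM in WT and 212, 263, 113 and 259 CPM in KO. S7 was the low sample of KO and lay under S4, the high sample of WT, so the groups overlapped. The means were 84.7 ± 38.3 and 212 ± 69.7 CPM (SD, n = 4), a 2.51-fold rise with a log2 fold change of 1.33 (SE 0.27, edgeR adjusted p = 0.00329), and the exact permutation p was 0.0571. It was not called by DESeq2 (adjusted p = 0.01, not below the threshold) or by glmTreat, edgeR's test against a fold change of 1.5 (adjusted p = 0.0459). The edgeR adjusted p was above 0.01 without S1 (0.0127), S2 (0.015), S3 (0.0167) or S6 (0.0138), with log2 fold changes of 1.15, 1.32, 1.22 and 1.21.

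*Ccl1*, by contrast, was 7.67, 20.5, 12 and 35.3 CPM in WT and 20.9, 13.7, 10 and 21.8 CPM in KO. All KO samples lay within the WT range. The log2 fold change was -0.17 (SE 0.36, edgeR adjusted p = 0.841, exact permutation p = 1), and it was above 0 without S4 (0.32) or S7 (0.01).

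**Figure D2:**
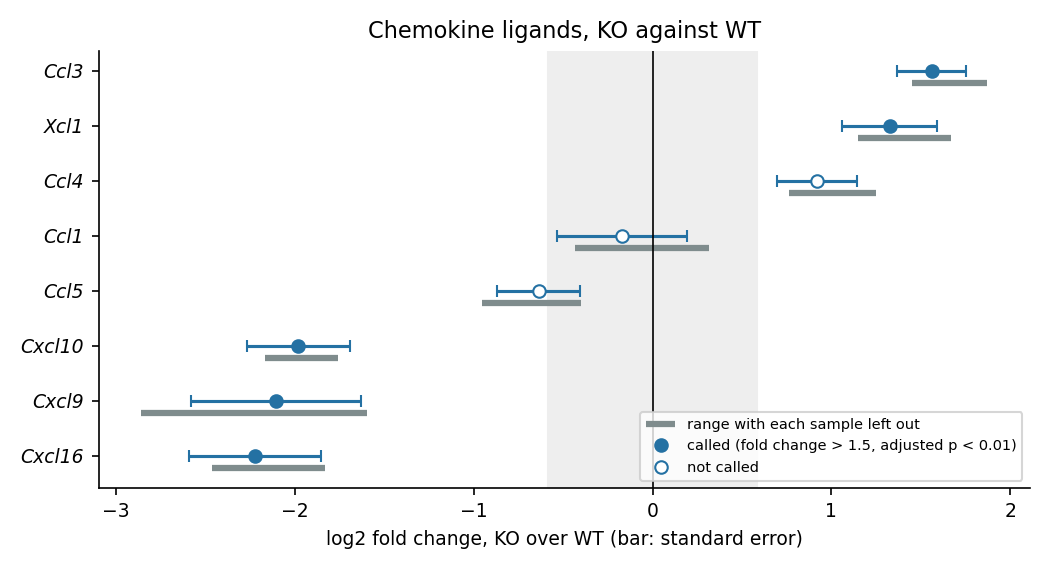
Log2 fold change of each ligand, KO over WT, with its standard error (blue) and the range of the estimate when each of the 8 samples is left out in turn (gray). Filled points were called, open points were not, and the shaded band spans fold changes up to 1.5. *Ccl3* stays between 1.45 and 1.87 and *Cxcl9* between -2.86 and -1.59.

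For levels between genes, counts were divided by exon length (RPKM, reads per kilobase of exon on the CPM scale). In WT the order of mean levels was *Ccl5* (237 RPKM), *Xcl1* (162), *Ccl4* (136) and *Ccl3* (124), of which the last 3 lay within one another's SD of 48.8 to 73.3 RPKM. In KO the order was *Xcl1* (405), *Ccl3* (366), *Ccl4* (256) and *Ccl5* (152), and *Xcl1*, with an SD of 133, was not separated from *Ccl3*, with an SD of 61.5. The other ligands were low on this scale, at 7.96 RPKM in WT and 7.01 in KO for *Ccl1*, 6.35 and 1.49 for *Cxcl9*, 7.45 and 1.88 for *Cxcl10*, and 7.5 and 1.61 for *Cxcl16*. *Ccl1* is annotated with 12 exon blocks over a long span and *Cxcl10* with 1 block of 2252 bases, so their levels per length depend on that annotation.

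The mixture of the 4 abundant ligands also differed between the genotypes, again in a comparison chosen after the values were seen. Of the summed RPKM of *Ccl3*, *Ccl4*, *Ccl5* and *Xcl1*, *Ccl5* held 47.2%, 40.9%, 39.6% and 23% in the WT samples but 7.58%, 10.8%, 14.1% and 18.1% in the KO samples. The groups did not overlap, S8 included, and the exact permutation p was 0.0286. *Ccl3* went from 18.4% ± 2.62 to 31.5% ± 4.62 (SD, n = 4, exact permutation p = 0.0286). For *Ccl4* the shares were 20.1% ± 4.03 and 21.8% ± 3.59 (exact permutation p = 0.543), and for *Xcl1* 23.8% ± 5.48 and 34.1% ± 8.58 (exact permutation p = 0.0857). The summed RPKM itself was 561, 601, 586 and 887 in WT and 959, 1440, 979 and 1340 in KO (exact permutation p = 0.0286). Shares of 1 sum are tied to one another, so a rise in one lowers the rest. Leaving out S5, S6, S7 or S8 gave an exact permutation p of 0.0571 for the *Ccl5* share, with differences of -26.8 to -23.3 percentage points against -25 with all samples.

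**Figure D3:**
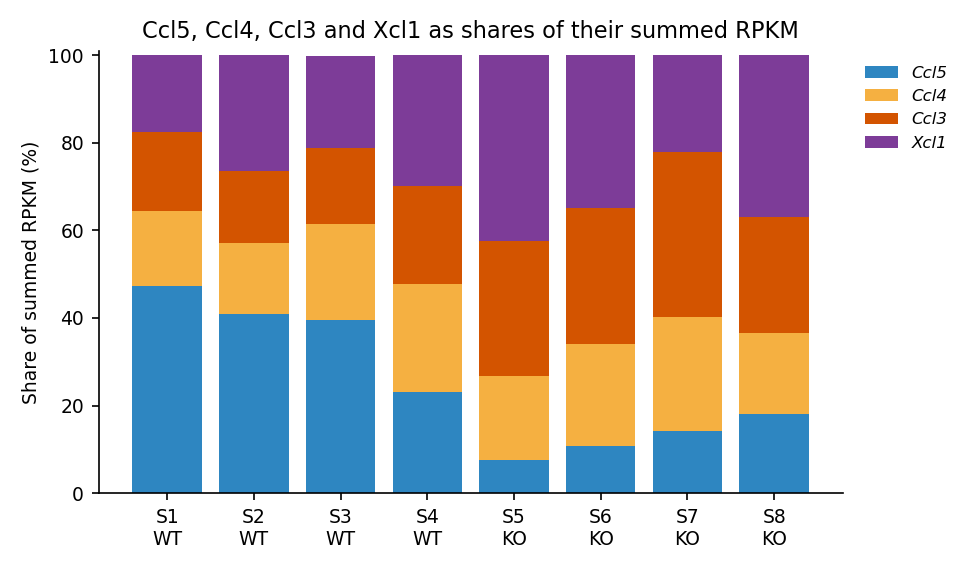
Shares of *Ccl5*, *Ccl4*, *Ccl3* and *Xcl1* in their summed RPKM (%), one stacked bar per sample. The *Ccl5* share is 23% to 47.2% in the WT samples S1 to S4 and 7.58% to 18.1% in the KO samples S5 to S8.

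The 3 CXC ligands all fell, by 3.94-fold to 4.67-fold. *Cxcl10*, which encodes IP-10, was 14.9, 19, 14.1 and 19.1 CPM in WT and 2.17, 5.09, 4.01 and 5.63 CPM in KO. The WT values were close together and well above all KO values. Its log2 fold change was -1.98 (SE 0.29, edgeR adjusted p = 0.00021, exact permutation p = 0.0286).

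*Cxcl9*, which encodes MIG, was 10.7, 11.5, 36.2 and 18.2 CPM in WT and 3.28, 10.2, 1.92 and 2.6 CPM in KO. S3 was the high sample of WT, and S6 was the high sample of KO, just under S1. The log2 fold change was -2.10 (SE 0.48, edgeR adjusted p = 0.00769, exact permutation p = 0.0286). It was not called by DESeq2 (adjusted p = 0.0168) or glmTreat (adjusted p = 0.0382). In edgeR the adjusted p was above 0.01 without S2, S3, S4, S5, S7 or S8, at 0.0102 to 0.0443, with log2 fold changes of -2.28, -1.59, -2.13, -1.98, -1.86 and -1.89, whereas it was 0.000433 with a log2 fold change of -2.86 without S6.

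*Cxcl16* was 16.2, 19.6, 38.8 and 15.9 CPM in WT and 6.89, 7.19, 2.5 and 2.92 CPM in KO. S3 was again the high sample of WT, and the groups did not overlap. The log2 fold change was -2.22 (SE 0.37, edgeR adjusted p = 0.000684, exact permutation p = 0.0286). *Zmynd15* lies on the opposite strand over 552 of the exon bases of *Cxcl16* and held 27.7% as many counts, and whether the counting used strand is not stated.

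The macrophage markers moved in the same direction as these CXC ligands. As a percentage of the summed macrophage marker CPM, *Cxcl9* was 3.41, 3.18, 4.18 and 4.49 in the WT samples but 3.56, 9.28, 2.85 and 4.13 in the KO samples, so the ratios of the groups overlapped. For *Cxcl16* they were 5.17, 5.42, 4.48 and 3.94 in WT and 7.47, 6.55, 3.72 and 4.63 in KO, which also overlapped. S3, highest in macrophage markers, was highest in both genes. For *Cxcl10* the percentages were 4.77, 5.24, 1.63 and 4.72 in WT and 2.35, 4.64, 5.96 and 8.92 in KO. They overlapped too, but *Cxcl10* was 14.1 CPM in S3, the lowest of WT, where the markers were highest. These percentages depend on the markers summed. *Cd68* and *Itgam* were 17.3 and 14 of the 63.1 CPM in S8, but 30.8 and 14.7 of the 867 CPM in S3. Neither was called between the genotypes (edgeR adjusted p = 0.124 and 0.995), so they weigh more in the KO sums. Whether the ratios to other markers overlap was not tested. With the log2 macrophage marker level as a covariate, the log2 fold changes were 1.63 (SE 0.81) for *Cxcl9*, 0.51 (SE 0.67) for *Cxcl16* and -2.56 (SE 0.82) for *Cxcl10*, none of them called (edgeR adjusted p = 0.602, 0.878 and 0.356). In that fit *Ccl3* was at 1.49 (SE 0.58, edgeR adjusted p = 0.469) and *Xcl1* at 1.43 (SE 0.81, edgeR adjusted p = 0.655). None of the 8 ligands was called in it, 2 had an unadjusted p under 0.05, and of all genes 20 were called higher and 0 lower. The marker level does not overlap between WT and KO, so its part and that of genotype cannot be told apart in these 8 samples, and in bulk RNA fewer cells of a type and less RNA per cell cannot be told apart either.

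**Figure D4:**
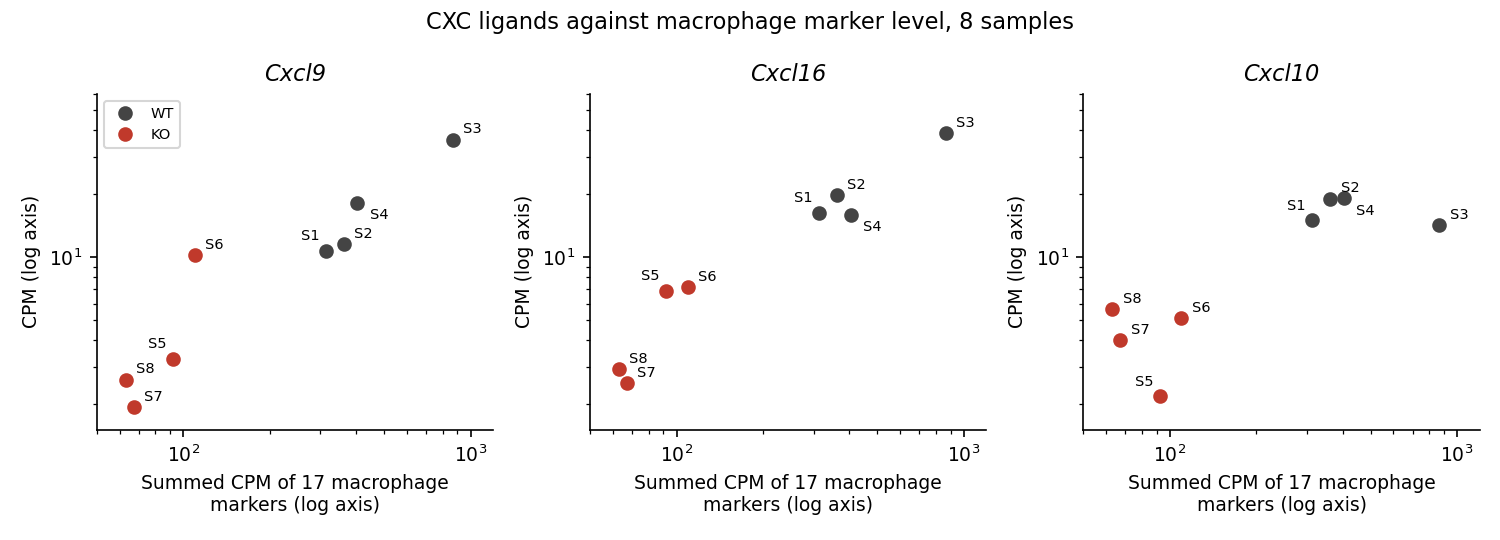
CPM of *Cxcl9*, *Cxcl16* and *Cxcl10* against the summed CPM of 17 macrophage markers in the 8 samples (both axes logarithmic, gray WT, red KO). WT and KO samples are apart on both axes, and within WT, S3 is highest for *Cxcl9* and *Cxcl16* but lowest for *Cxcl10*.

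Of the class II and dendritic cell list, 3 of 6 tested genes were called lower (*H2-Aa*, *H2-Ab1* and *H2-Eb1*), against 1.99% of all genes tested. All 6 were below 0 in log2 fold change. *Cd74*, the most abundant of the list (204 and 170 CPM in WT and KO), and *Itgax* (50.7 and 49.8 CPM) were not called (edgeR adjusted p = 0.591 and 0.976). Of 19 tested IFN-γ inducible genes, a list without *Cxcl9* and *Cxcl10*, 2 were called higher (*Cd274* and *Irgm2*), 2 lower (*Ciita* and *Irf8*), and the median log2 fold change was 0.27. *Ifng* itself was 330 ± 83.1 CPM in WT and 462 ± 54.4 in KO (SD, n = 4), a log2 fold change of 0.49 that was not called (edgeR adjusted p = 0.0331). Of 10 cytokine genes that activated CD8+ T cells use, 4 were called higher (*Tnf*, *Lta*, *Csf1* and *Tnfsf14*) and 0 lower, with a median of 0.65. *Tnf* was 57.3 ± 1.64 CPM in WT and 134 ± 27.5 in KO (SD, n = 4, log2 fold change 1.22, edgeR adjusted p = 8.65e-06).

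The other chemokine ligand genes were scarce. Of 30, 12 had no count in any sample and 8 were tested, with 1 called lower and 0 higher. That gene was *Cxcl14*, a ligand with roles in epithelium and monocytes, with 15, 37, 43 and 19 counts in the WT samples against 1, 0, 0 and 0 in the KO samples, so 1 KO count carries its fold. Its ratio of WT to KO was 129 with a 95% exact counting interval of 22.8 to 5150, which covers counting error only (edgeR adjusted p = 0.00238). The monocyte attractants *Ccl2* and *Ccl7* did not overlap between groups but were not called: *Ccl2* was 1.1, 3.16, 5.79 and 1.98 CPM in WT and 0, 0.485, 0 and 0.0703 CPM in KO (edgeR adjusted p = 0.0122), and *Ccl7* averaged 2.11 and 0.305 CPM (edgeR adjusted p = 0.0893). The median log2 fold change of the 8 was -1.88, with 7 below 0. *Ccl9*, which macrophages express, had a log2 fold change of -1.19 (edgeR adjusted p = 0.0472), whereas *Ccl25* was even in both groups (log2 fold change -0.00, edgeR adjusted p = 0.996). *Ccl22*, a ligand of CCR4 made by dendritic cells and some T cells, had 0 counts in all WT samples and 0, 5, 9 and 11 in KO, under the filter for testing.

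Of the 8 receptor genes of these ligands, 6 were tested and none was called by edgeR, while 2 had an unadjusted p under 0.05 and DESeq2 called 1 higher and 0 lower. *Ccr1*, the receptor of CCL3 and CCL5, was 7.96, 18.8, 14.5 and 10.1 CPM in WT and 42.7, 36.9, 25 and 13.7 CPM in KO, with a log2 fold change of 1.20 (edgeR adjusted p = 0.0195). S8 alone among the KO samples reached into the WT range. *Cxcr6*, the receptor of CXCL16, was at 352 ± 21.9 and 384 ± 61.1 CPM, *Cxcr3* at 61.5 ± 7.49 and 74.6 ± 36.5, and *Ccr8* at 41.6 ± 7.28 and 51.2 ± 6.64 (SD, n = 4, edgeR adjusted p = 0.553, 0.509 and 0.226). *Xcr1* had too few counts to test, with 0, 10, 35 and 21 in WT and 0, 0, 0 and 5 in KO, and *Ackr2*, a scavenger of CC chemokines, had none.

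Within the groups, *Ccl3* and *Ccl4* varied together, with r = 0.951 over 8 samples after the mean of each group was removed. Next were *Xcl1* and *Ccl1* at 0.873, *Ccl5* and *Cxcl10* at 0.843, and *Cxcl9* and *Cxcl16* at 0.807, whereas *Cxcl9* and *Cxcl10* stood at 0.06. Over 10941 genes with a mean log2 CPM above 2, the gene most like *Ccl5* was *Heatr9* (r = 0.989), which lies 3.6 kb from it on the same strand at chr11:83511736-83522175 and had 264, 223, 157 and 90 counts in WT and 13, 49, 48 and 371 in KO. Like *Ccl5*, *Heatr9* was lowest in S5 and highest in S8 among the KO samples. These counts are not scaled for depth, and S8 was the deepest library. The genes most like *Cxcl9* were *Mif4gd* (0.98) and *Fcer1g* (0.973), the latter a myeloid and NK cell receptor chain that was called lower in KO. The first places were taken by *Cit* (0.969) for *Ccl3*, *G3bp1* (0.98) for *Ccl4*, *Manf* (0.969) for *Xcl1*, *Cnot4* (0.97) for *Ccl1*, *1700052K11Rik* (0.973) for *Cxcl10* and *Zfp984* (0.976) for *Cxcl16*, and *Ccl3* took the third place for *Ccl4*. These correlations describe 8 samples that share depth and cell mixture, and high values arise readily when so many genes are compared.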

How the data were processed

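RNA of sorted CD8+CD44+PD-1+ TILs was sequenced from 4 WT and 4 KO samples. The authors depleted ribosomal RNA, made directional libraries, mapped the reads to GRCm38 (STAR) and assigned them to GENCODE genes (featureCounts), whose strand setting is not given in the sources used here. The deposited values are raw counts per gene, without normalization. The authors' comparison used DESeq2 after a GC content correction. The names S1 to S8 that the study gives its samples tie the columns to a genotype but not to replicate numbers.

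Counts were filtered (filterByExpr), scaled (TMM) and tested with edgeR 4.0.16 in R 4.3.3 (quasi-likelihood, no covariate). Calls needed a fold change over 1.5 with a Benjamini-Hochberg adjusted p below 0.01 among 15378 genes. Exact permutation tests used log2 CPM (prior count 2) for single genes, log2 values for ratios and the summed RPKM, and the values themselves for shares. RPKM used exon lengths of GENCODE M21 (55154 of 55335 IDs matched). The fit was tested on simulated data. Within each group, samples differed by more than sampling noise. The p-values set the difference between the groups against the spread between these samples.

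The ligands and lists were chosen with earlier results of these data known. Named genes are the ligands, *Kdm1a*, called and most abundant genes of each list, up to 5 a list (but all called other ligands), and the 3 genes most like each ligand, of which some are given. *Ccl22*, *Xcr1*, *Ackr2*, *Ccl7*, *Cd163*, *Cd68*, *Itgam* and *Zmynd15* were named after their values were seen. Alternatives were other scaling and filters, DESeq2 1.42.0, glmTreat, an adjusted p of 0.05, GC offsets, a macrophage marker covariate and leaving out each sample. Leave-one-out values of the *Ccl3* to *Ccl4* ratio and the *Ccl5* share, and that share without length scaling, were added after seeing the data. A receptor gene of the list is not reported here.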

Additional observations from a re-analysis of the deposited data

Results flagged for a closer look

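In WT, *Ccl3* had 1 sample apart from the others: S4, at 151 CPM against 75.6 to 77.1 CPM in S1 to S3, with a gap to the next sample that made up 0.972 of the range of the group on the log2 CPM scale. On that scale it was the 1 group set apart of the 16 checked (8 ligands in 2 genotypes), and chance sets apart about 1 in 20 such groups. On CPM itself, a scale tried after seeing the data, 3 groups were set apart: *Ccl3* in WT (S4, 0.981), *Cxcl16* in WT (S3, 0.839) and *Cxcl9* in KO (S6, 0.835). S4 was also the highest WT sample for *Ccl4*, *Xcl1* and *Ccl1*. Without S4, the log2 fold change of *Ccl3* was at the top of its range, 1.87, and *Ccl4* was called.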

How the results depend on the processing

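The number of ligands called higher, 2 in the comparison reported, was 1 with DESeq2, 1 with glmTreat against the fold change of 1.5, 0 with the macrophage covariate and 1 to 3 with each sample left out. The number called lower, 3, was 2 with DESeq2, 2 with glmTreat, 4 without a filter on low counts, 0 with the covariate and 2 to 3 with each sample left out. Over all genes, 447 called higher became 617 with DESeq2, 642 without a filter on low counts and 165 with glmTreat. They became 695 at an adjusted p under 0.05, 20 with the covariate and 347 to 452 with each sample left out. The 306 called lower became 531 without a filter on low counts, 461 with DESeq2, 130 with glmTreat, 551 at an adjusted p under 0.05, 0 with the covariate and 199 to 303 with each sample left out. With the covariate, *Cxcl9* (1.63) and *Cxcl16* (0.51) changed sign, as did *Ccl1* without S4 (0.32) or S7 (0.01), whose values with each sample left out ran from -0.43 to 0.32, and the cause was not tested. *Ccl3*, *Cxcl10* and *Cxcl16* were each called in 17 of 18 alternatives, all but the covariate, *Xcl1* in 11, *Cxcl9* in 9, *Ccl4* in 4, *Ccl5* in 2 and *Ccl1* in 0. Neither DESeq2 nor glmTreat called *Xcl1* or *Cxcl9*. Without the filter, where edgeR took the spread as known (prior degrees of freedom infinite, against 10.5), *Ccl4* and *Ccl5* were called. The *Ccl5* share without length scaling differed by -29.6 percentage points (exact permutation p = 0.0286).

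No paired analysis was possible because the columns carry no replicate numbers of the labels. Scaling moved the median of all genes by under 0.1 on the log2 scale. With 4 samples a group, each WT sample pooling mice and each KO sample not, the spread of the groups is not like for like, and the CXC ligands in KO rest on low levels of 1.92 to 10.2 CPM.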
